A study of Mus musculus with 8 samples.

Results

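The miR-130 and miR-301 family was followed through small RNA libraries of murine hepatocytes and of the extracellular vesicles (EVs) that they release. Its members were taken by name, as the guide strands mmu-miR-130a-3p, mmu-miR-130b-3p, mmu-miR-301a-3p and mmu-miR-301b-3p (written below without the species prefix), which are 4 of the 1978 mouse miRNAs counted. 3 of the 4 were among the 180 miRNAs with at least 1 read in 2 or more cell libraries and in 2 or more EV libraries. miR-301b-3p was not, because only 1 EV library held any of its reads. The cells were of the 3A line, non-tumorigenic murine hepatocytes, infected with a retrovirus and kept under puromycin, and they expressed either a scrambled shRNA (shCTR) or shRNA against PCBP2 (shPCBP2), an RNA-binding protein that the study examined for a role in retaining miRNAs inside cells. EVs were collected by ultracentrifugation from medium with EV-depleted serum that the cells had conditioned for 72 h. Cells and EVs of either shRNA were each sequenced in 2 biological replicates, so that all 8 libraries trace back to a single cell line.

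miRNAs recognise target mRNAs mainly through the seed, a stretch near the 5′ end, and miRNAs with the same seed are grouped as a family because they can address overlapping sets of targets. The family is known for repressing Pparg, which encodes a nuclear receptor of lipid metabolism. Each hairpin precursor gives a guide strand, here the 3p arm, and an opposite 5p arm that is mostly degraded.

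RefSeq mature sequences (GRCm38.p6) were matched by name for 3 of the 4 members, and miR-301b-3p is named only. They are shown because the seed defines the family and the bases after it set the members apart. Capitals mark the seed, bases 2 to 8 counted from the 5′ end.
miR-130a-3p: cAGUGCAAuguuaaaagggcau
miR-130b-3p: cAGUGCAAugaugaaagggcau
miR-301a-3p: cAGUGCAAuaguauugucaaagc
miR-130a-3p and miR-130b-3p share their first 10 bases and differ by 2 substitutions, U11A and A13G, and how cleanly the counting separated such near-identical strands was not tested. miR-301a-3p shares 9 bases at the 5′ end with both.

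The study asked whether short motifs in a miRNA go along with retention in cells or loading into EVs. Here only the letters AUUA and AUUG, the core of the retention motif, and GGCU were searched, in the mature strand, and not the longer or degenerate motifs of the study. miR-130a-3p and miR-130b-3p held none of the 3. miR-301a-3p held AUUG once, starting at base 13 and shown here in capitals.
miR-301a-3p: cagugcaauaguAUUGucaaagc
AUUG was present in 25 (16.0%) of the 156 tested miRNAs that have a sequence in RefSeq, GGCU in 24 (15.4%) and AUUA in 0. The match is a description of the sequence and no evidence of binding.

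The members come from 3 places in the mouse genome. Mir130a lies on the minus strand at chr2:84741115-84741178, outside any other annotated gene, and its guide strand at chr2:84741116-84741137. Mir301 lies on the plus strand at chr11:87113004-87113089, in an intron of Ska2, and the miR-301a-3p strand at chr11:87113054-87113076. Mir130b (chr16:17124061-17124142) and Mir301b (chr16:17124400-17124496) both lie within an intron of 2610318N02Rik, on the minus strand, with 257 bases between them. The miR-130b-3p strand is at chr16:17124071-17124092.

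Libraries held 26391248 to 38166798 reads. The spike-in cel-miR-39, a nematode miRNA added to each RNA sample, took 57.4 to 66.9% of the reads in cells and 97.6 to 98.4% in EVs, which left 8745848 to 12732173 mouse miRNA reads per cell library and 503070 to 687592 per EV library. A level is given throughout as reads per 1000000 spike-in reads of the same library. On this scale, fewer cells or vesicles in a preparation and less RNA in each cannot be told apart. Of the hepatocyte markers, miR-194-5p had 218474 to 342726 reads in cell libraries but miR-122-5p, the most typical of hepatocytes, only 356 to 485. The 5 listed hepatocyte markers all had at least 1 read in every cell library. miR-192-5p had 10976 to 20510 reads there, but miR-148a-3p only 7 to 75 and miR-101a-3p 1 to 87. In the EV libraries, miR-122-5p had 795 to 2327 reads, miR-148a-3p 548 to 964 and miR-101a-3p 51 to 390. miR-194-5p had 3784 to 5454 there and miR-192-5p 0 to 1058, with 0 in both EV shPCBP2 libraries. The 5 together were at a level of 13026 to 20416 in cells and 208 to 327 in EVs. The 3 erythroid markers together were at a level of 3.85 to 10.8 in cells and at 1009 to 1275 in EVs, and miR-451a and miR-144-3p had 0 reads in every cell library. The 3 leukocyte markers reached 0.786 to 5.05 in cells and 230 to 418 in EVs, with miR-142a-3p at 0 reads in cells. The erythroid and leukocyte markers moved with the EV fraction, while the hepatocyte list was split. The part of either in the EV levels of the family was not tested.

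miR-130a-3p was the abundant member. Cells gave 535477 and 448521 reads with shCTR and 290651 and 426747 with shPCBP2, replicate 1 first. EVs gave 5581 and 5193 reads with shCTR and 5892 and 2900 with shPCBP2. It ranked 6th to 12th among mouse miRNAs in cell libraries and 24th to 42nd in EV libraries. The level in cells was 30047 and 28506 with shCTR and 16472 and 23949 with shPCBP2, and in EVs it was 201 and 199 with shCTR and 157 and 95.4 with shPCBP2. Both shPCBP2 libraries thus lay below both shCTR libraries in each compartment. Of the 180 tested miRNAs, 66.7% did so in cells and 42.2% in EVs.

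miR-130b-3p had 15517 and 14787 reads in cells with shCTR and 21846 and 31396 with shPCBP2, compared with 988 and 701 in EVs with shCTR and 2380 and 859 with shPCBP2. The corresponding levels were 871 and 940, then 1238 and 1762, then 35.6 and 26.9, and finally 63.4 and 28.2. Both cell shPCBP2 libraries stood above both cell shCTR libraries, which held for 2.22% of the 180 tested miRNAs. In EVs the conditions overlapped, with the highest value in EV shPCBP2 replicate 1.

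miR-301a-3p, the member from the Ska2 intron, had 11933 and 12274 reads in cells with shCTR and 8467 and 11357 with shPCBP2, compared with 153 and 179 in EVs with shCTR and 1131 and 114 with shPCBP2. Its levels were 669.6 and 780.1, then 479.8 and 637, then 5.51 and 6.88, and finally 30.1 and 3.75. The cell shPCBP2 libraries were the lower ones in cells, as for 66.7% of the 180 tested miRNAs. In EVs the shPCBP2 replicates lay on either side of the shCTR pair.

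miR-301b-3p, the neighbour of miR-130b in the genome, was the rarest member. It had 636 and 379 reads in cells with shCTR and 581 and 882 with shPCBP2, compared with 0 and 0 in EVs with shCTR and 158 and 0 with shPCBP2. The levels in cells were 35.7 and 24.1 for shCTR and 32.9 and 49.5 for shPCBP2, so the conditions overlapped. EV shPCBP2 replicate 1 was at 4.21, and a count of 0 in the other EV libraries allows up to 3 reads, that is a level of up to 0.0987 to 0.115. The order miR-130a-3p, miR-130b-3p, miR-301a-3p, miR-301b-3p held in all 8 libraries. Across libraries of a group it was not clear-cut for miR-130b-3p and miR-301a-3p in EV shPCBP2, where 30.1 for miR-301a-3p in replicate 1 exceeded 28.2 for miR-130b-3p in replicate 2.

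**Figure D1:**
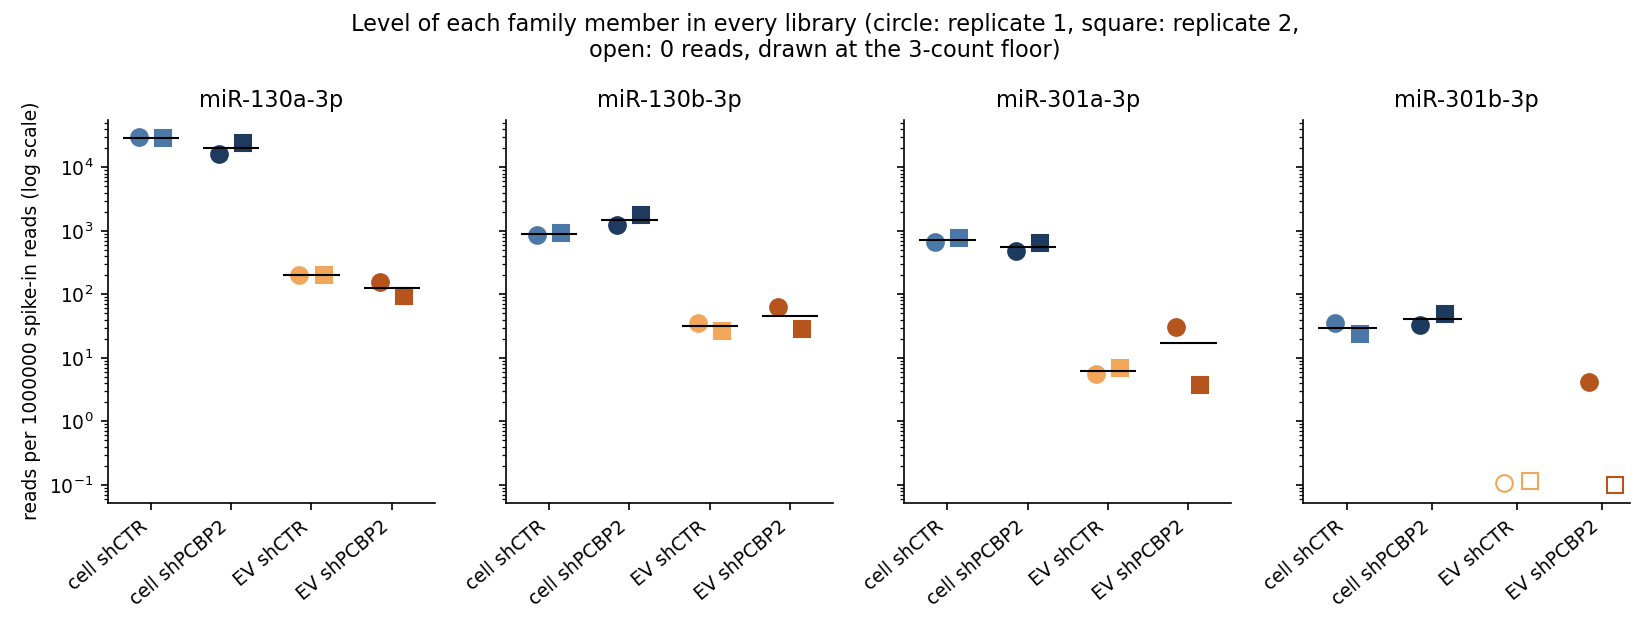
Level of each member in reads per 1000000 spike-in reads (log axis) in the 8 libraries, grouped by compartment and shRNA. Circles are replicate 1, squares replicate 2, horizontal lines the group mean where both libraries have reads, and open symbols libraries with 0 reads, drawn at the level of 3 reads. miR-130a-3p runs from 30047 to 95.4, and miR-301b-3p has reads in a single EV library.

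EVs held far less of each tested member than cells, relative to the spike-in. miR-130a-3p was 146-fold lower in EVs than in cells of shCTR (log2 -7.19 ± 0.37 SE, edgeR adjusted p = 8.08e-06) and 160.2-fold lower in shPCBP2 (log2 -7.32 ± 0.37, adjusted p = 7.50e-06). For miR-301a-3p the difference was 117-fold in shCTR (log2 -6.87 ± 1.12, adjusted p = 0.00164) and 33.0-fold in shPCBP2 (log2 -5.04 ± 1.02, adjusted p = 0.00469). miR-130b-3p was 29.0-fold lower in shCTR (log2 -4.86 ± 0.52, adjusted p = 0.000205) and 32.7-fold lower in shPCBP2 (log2 -5.03 ± 0.52, adjusted p = 0.000175). The 3 of 3 tested members that were lower stand beside a background in which 59.4% of all tested miRNAs were lower in EVs in shCTR and 60.0% in shPCBP2.

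This difference between compartments depends on the spike-in as the yardstick, since the median of all 180 miRNAs was itself -4.93 in shCTR and -4.90 in shPCBP2. Against that median, miR-130a-3p stood at -2.26 log2 units in shCTR and -2.43 in shPCBP2, miR-301a-3p stood at -1.94 in shCTR and -0.15 in shPCBP2, and miR-130b-3p stood at 0.08 and -0.14. In rank from highest to lowest EV/cell value in shCTR, miR-130b-3p was 88th of 180, miR-301a-3p 159th and miR-130a-3p 166th. When the libraries were scaled by TMM, by median-of-ratios or by their miRNA total instead, only miR-130a-3p of the 3 members remained lower in EVs with an adjusted p under 0.05, in both conditions. In shCTR 22.2% of all tested miRNAs were lower with TMM, 20.0% with median-of-ratios and 17.8% with the total, and in shPCBP2 25.0%, 22.8% and 19.4%.

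For miR-301a-3p in shPCBP2 the size of the difference also rests on 1 library. The log2 difference was -7.22 without EV shPCBP2 replicate 1 and -4.21 without EV shPCBP2 replicate 2. That of miR-130b-3p in shPCBP2 was -5.73 and -4.56 without the same libraries, and both members stayed called. miR-301b-3p was not in the main test. Without the filter it passed as lower in EVs in shCTR (edgeR adjusted p = 0.0166) but not in shPCBP2 (adjusted p = 0.162), with fitted changes that depend on the prior count. Its mean level in cell shCTR, 29.9, was at least 268-fold higher than that of 3 reads per EV library, and in shPCBP2, where 1 EV library had reads, the cells were at least 19.1-fold higher with the empty library set to 3 reads.

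**Figure D2:**
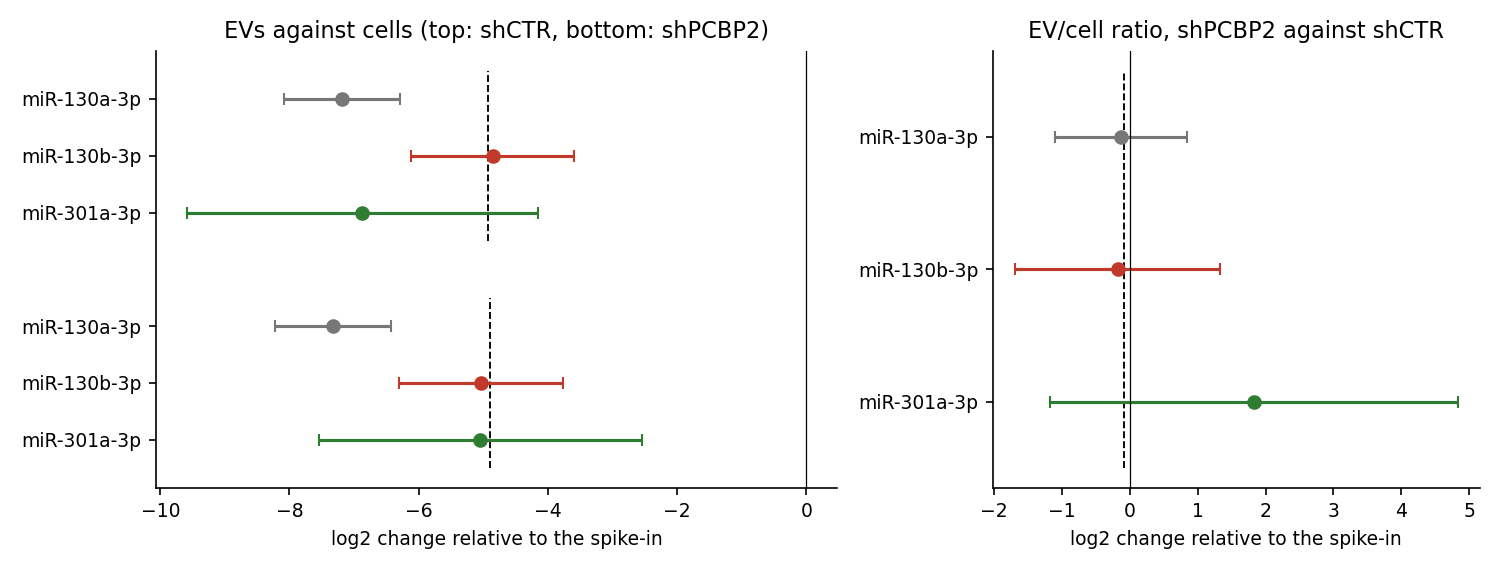
Left, log2 difference between EVs and cells for the tested members in shCTR (upper 3) and shPCBP2 (lower 3). Right, log2 change of the EV/cell ratio between shCTR and shPCBP2 (positive where higher in shPCBP2). Points are edgeR estimates with 95% intervals, dashed lines the median of 180 miRNAs. All 6 intervals on the left exclude 0 and all 3 on the right include it.

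In these libraries the family reads were made up differently in cells and EVs, although no ratio of members passed its adjusted test (below). miR-130a-3p made up 95.02 and 94.2% of the family reads in cells with shCTR and 90.4 and 90.7% with shPCBP2, compared with 83.0 and 85.5% in EVs with shCTR and 61.6 and 74.9% with shPCBP2. miR-130b-3p took 2.75 and 3.11%, then 6.79 and 6.67%, then 14.7 and 11.5%, and finally 24.9 and 22.2%. Its share in every EV library was above that in every cell library. The share is set mainly against miR-130a-3p, which was among the lowest miRNAs in EV/cell value (166th of 180 in shCTR). In EV shPCBP2 replicate 2, the library with the fewest family reads, the 95% Wilson interval of the miR-130b-3p share was 20.9 to 23.5%, which covers counting error only.

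miR-301a-3p kept a share of 2.12 to 2.63% in cells and of 2.28 to 2.95% in 3 of the 4 EV libraries. In EV shPCBP2 replicate 1 it reached 11.8% (95% Wilson interval 11.2 to 12.5%). miR-301b-3p made up 0.113, 0.0796, 0.181 and 0.188% of the family in the cell libraries and 1.65% (1.42 to 1.93%) in EV shPCBP2 replicate 1. The family as a whole took 3.68 to 4.43% of the mouse miRNA reads in cells and 0.770 to 1.55% in EVs.

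**Figure D3:**
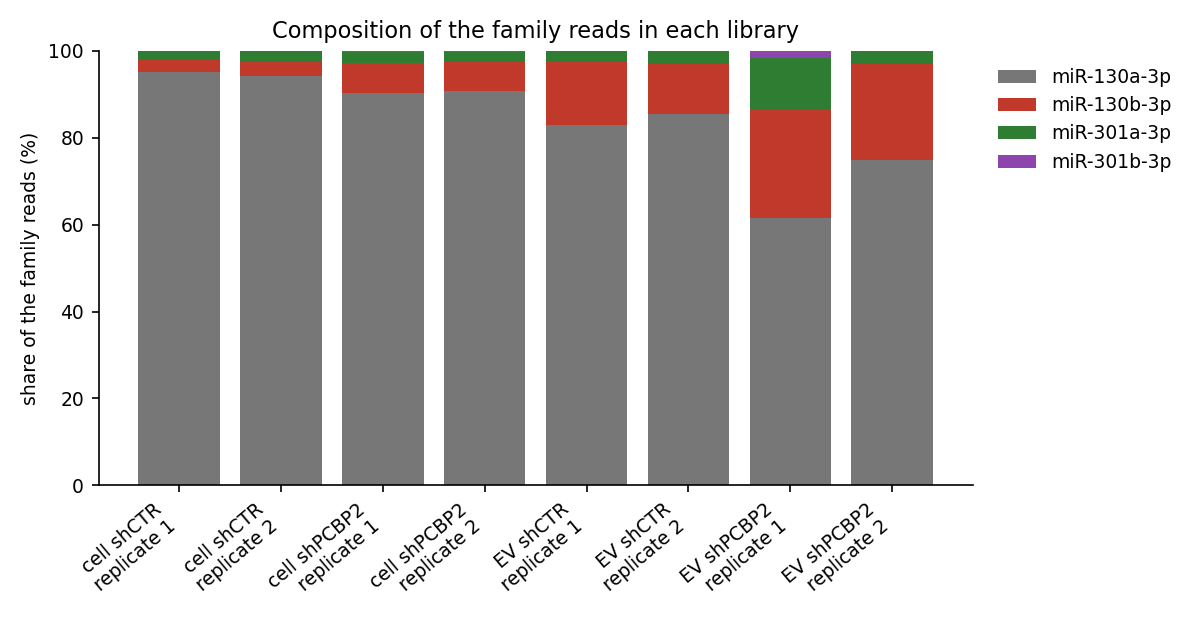
Share of each member (%) in the family reads of the 8 libraries, as stacked bars. The miR-130a-3p part shrinks from 95.02% in cell shCTR replicate 1 to 61.6% in EV shPCBP2 replicate 1, and the miR-130b-3p part is larger in each EV library than in any cell library.

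Ratios of members within a library need no spike-in or other scaling. There were 2.90 and 3.30 reads of miR-130b-3p per 100 of miR-130a-3p in cells with shCTR and 7.52 and 7.36 with shPCBP2, compared with 17.7 and 13.5 in EVs with shCTR and 40.4 and 29.6 with shPCBP2. The 4 EV libraries lay above the 4 cell libraries, by 2.27 log2 units or 4.83-fold (two-sided exact permutation test, p = 0.0286, the smallest that 4 against 4 libraries can give, adjusted p = 0.0857 over 3 pairs of members). Leaving out single libraries gave 2.00 to 2.53. The test pooled both shRNAs, between which this ratio also differed, and did not permute within each shRNA. The difference misses the threshold once adjusted. miR-130a-3p was 166th of 180 in EV/cell value in shCTR and 164th in shPCBP2, and miR-130b-3p was 88th and 96th. Most tested miRNAs thus had a higher EV/cell value than miR-130a-3p, and a rise against it in EVs is not particular to miR-130b-3p.

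The same ratio also differed between the conditions inside each compartment. It was 1.27 log2 units (2.41-fold) higher in cell shPCBP2 than in cell shCTR and 1.16 (2.24-fold) higher in EV shPCBP2 than in EV shCTR, without overlap of the replicates. An exact permutation test of 2 against 2 libraries cannot go below p = 0.33, which is what both gave. How many other miRNAs separate likewise in their ratio to miR-130a-3p was not counted, so the separation cannot be called unusual.

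For miR-301a-3p there were 2.23 and 2.74 reads per 100 of miR-130a-3p in cells with shCTR and 2.91 and 2.66 with shPCBP2, compared with 2.74 and 3.45 in EVs with shCTR and 19.2 and 3.93 with shPCBP2. EVs and cells differed by 0.98 log2 units (exact permutation p = 0.0571, adjusted p = 0.0857), or by 0.35 without EV shPCBP2 replicate 1. The ratio of miR-301a-3p to miR-130b-3p differed by -1.29 (exact permutation p = 0.0857, adjusted p = 0.0857). In cells, where its reads sufficed, miR-301b-3p had 4.10 and 2.56 reads per 100 of its genomic neighbour miR-130b-3p in shCTR and 2.66 and 2.81 in shPCBP2, and in EV shPCBP2 replicate 1 it had 6.64.

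**Figure D4:**
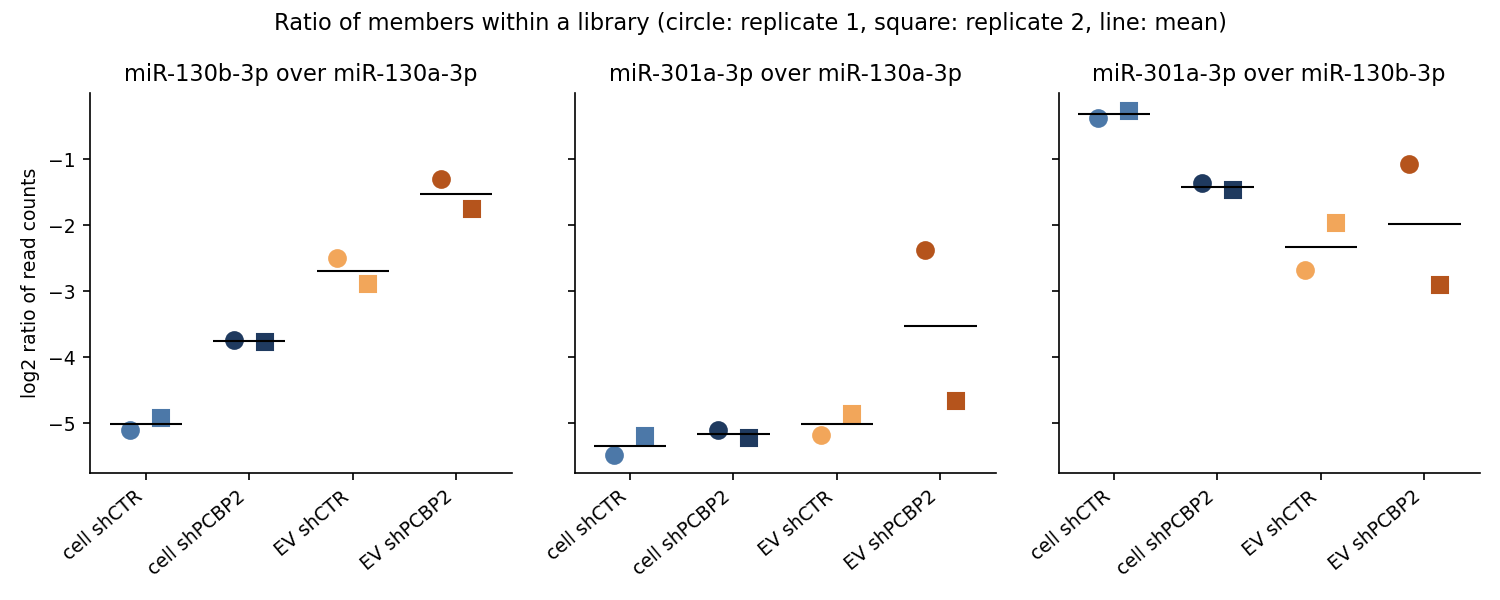
log2 ratio of read counts between pairs of members within each library, by compartment and shRNA. Circles are replicate 1, squares replicate 2, lines the group mean. For miR-130b-3p over miR-130a-3p the 4 EV libraries lie above the 4 cell libraries, while for both ratios with miR-301a-3p EV shPCBP2 replicate 1 stands apart from replicate 2.

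In cells, silencing of PCBP2 went along with members that pointed in different directions, none of which passed the test. The log2 change of miR-130b-3p was 0.73 ± 0.44 SE (95% interval -0.35 to 1.80, edgeR adjusted p = 0.570), that of miR-130a-3p was -0.53 ± 0.28 (-1.22 to 0.15, adjusted p = 0.526) and that of miR-301a-3p was -0.38 ± 0.86 (-2.48 to 1.73, adjusted p = 0.938). The 0 of 3 members called match a background of 0.0%, while 25 of the 180 miRNAs had an unadjusted p under 0.05 and none of them was a member. DESeq2 called 18 miRNAs in cells and 0 members. The median change was -0.38 over the members and -0.49 over all tested miRNAs.

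miR-130b-3p stood out from that background in rank. Its change was the 4th highest of 180, and only 15 miRNAs had a positive value. It was also 1 of the 4 miRNAs (2.22%) whose cell shPCBP2 levels were both above the cell shCTR levels, against 66.7% with both below, to which miR-130a-3p and miR-301a-3p belonged. Its change was 1.21 with TMM, 1.13 with median-of-ratios scaling and 1.00 with the miRNA total, and it lay 1.22 above the median of all tested miRNAs with the spike-in. Its adjusted p ranged from 0.0940 to 0.999 over 17 alternative settings. The change of miR-301a-3p was positive with TMM (0.11) and with median-of-ratios scaling (0.033).

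In EVs, shPCBP2 against shCTR gave a log2 change of -0.67 ± 0.28 (95% interval -1.36 to 0.02, edgeR adjusted p = 0.312) for miR-130a-3p, of 0.55 ± 0.44 (-0.52 to 1.62, adjusted p = 0.631) for miR-130b-3p and of 1.45 ± 0.88 (-0.70 to 3.60, adjusted p = 0.459) for miR-301a-3p. Again 0 of 3 members passed, where 7.22% of all tested miRNAs did (1.67% higher and 5.56% lower), and DESeq2 called 27 miRNAs and 0 members. An unadjusted edgeR p under 0.05 was reached by 31 miRNAs and, with the main settings, by 0 members. The members' median was 0.55 and that of all 180 miRNAs was -0.54. In rank from the highest change down, miR-301a-3p was 9th, miR-130b-3p 24th and miR-130a-3p 108th. miR-130a-3p was among the 42.2% of miRNAs whose EV shPCBP2 levels were both below the EV shCTR levels.

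**Figure D5:**
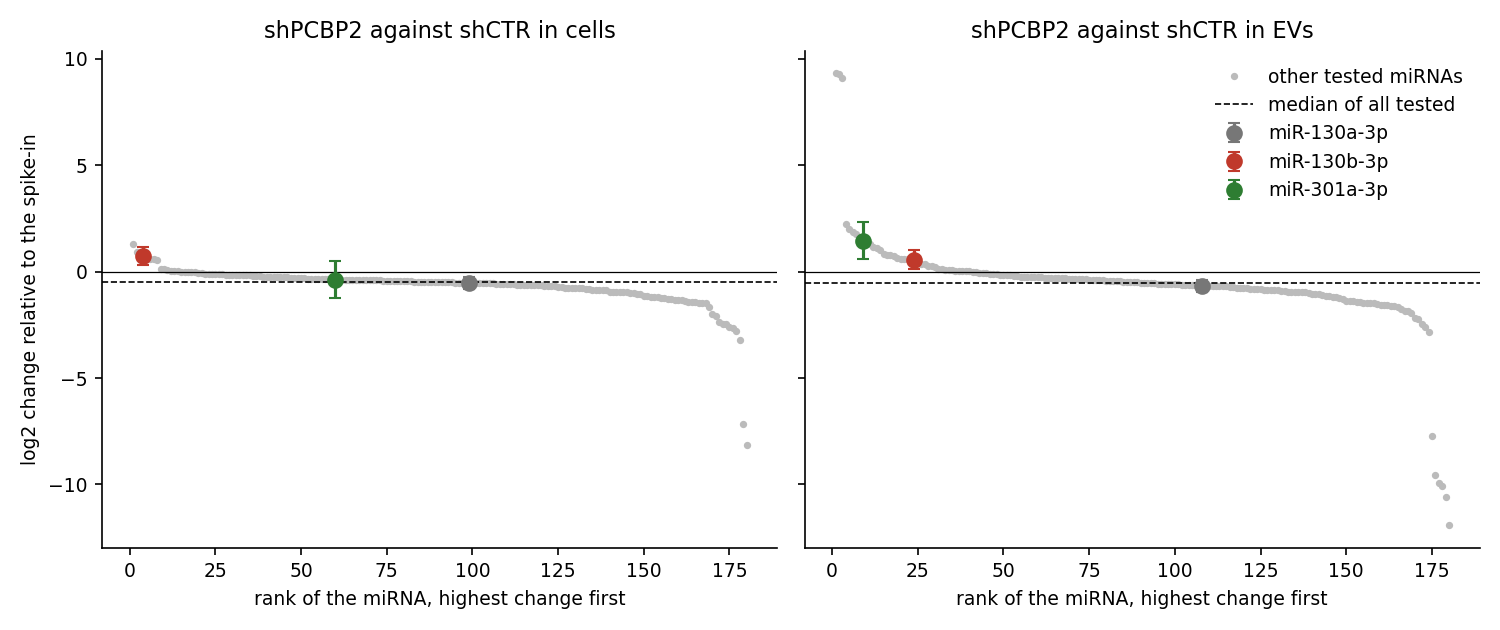
log2 change of 180 miRNAs in shPCBP2 against shCTR in cells (left) and EVs (right), ordered by size. Coloured points are members with ± 1 SE, grey points the other miRNAs, dashed lines the medians (-0.49 and -0.54). In cells miR-130b-3p is 4th and miR-130a-3p close to the median, and in EVs miR-301a-3p is 9th and miR-130b-3p 24th.

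The EV values of miR-301a-3p and miR-130b-3p rest on EV shPCBP2 replicate 1. In this library the level of miR-301a-3p was 8.003-fold that of replicate 2. That fold was matched or exceeded by 22 of the 180 miRNAs, itself included, and by 40 in either direction. miR-130b-3p was 2.24-fold higher in replicate 1, against 1.65-fold for miR-130a-3p. Over all tested miRNAs the median difference between these replicates was 0.09 log2 units and the median absolute difference 0.66. Without replicate 1 the change was -0.72 for miR-301a-3p and -0.15 for miR-130b-3p. Without replicate 2 it was 2.28 for miR-301a-3p, with an adjusted p of 0.0288, and 1.02 for miR-130b-3p. In both cases the EV shPCBP2 group is a single library that is assumed to vary like the other groups, and replicate 1, the one kept for the value of 2.28, is the library that stands apart. The 3 erythroid markers together were at 1009 in replicate 1 and 1015 in replicate 2, and the 3 leukocyte markers at 229.5 and 273.

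The EV/cell ratio corrects the level in EVs for that in the cells, and its change is the comparison the study used. For miR-130a-3p the ratio changed by -0.13 ± 0.40 log2 units (95% interval -1.10 to 0.84, edgeR adjusted p = 0.992), and for miR-130b-3p by -0.18 ± 0.62 (-1.69 to 1.34, adjusted p = 0.992). miR-301a-3p had a value of 1.83 ± 1.23 (-1.18 to 4.83, adjusted p = 0.987), 16th of 180. No member passed the test, beside 2.22% of all tested miRNAs (0.556% higher and 1.67% lower), and 17 of the 180 but no member had an unadjusted p under 0.05. DESeq2 called 14 miRNAs and again 0 members. The intervals leave room for a change of the ratio of about 1 log2 unit in miR-130a-3p and of more in the other members. The median was -0.13 over the members and -0.08 over all tested miRNAs. For miR-301a-3p the value was -0.35 without EV shPCBP2 replicate 1 and 2.66 without EV shPCBP2 replicate 2, with an adjusted p of 0.0572 in the latter case, where the same assumption applies.

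The opposite arms of all 4 hairpins had reads in cells and 0 reads in each EV library. miR-130a-5p had 135, 60, 49 and 8 reads in the cell libraries, in the order of the counts above, which was 0.00187 to 0.0252% of both arms. miR-130b-5p had 71, 131, 82 and 65 reads (0.207 to 0.878%) and miR-301a-5p had 24, 19, 5 and 16 (0.0590 to 0.201%). miR-301b-5p was detected in cell shPCBP2 replicate 2 alone, with 8 reads. A count of 0 allows up to 3 reads per EV library. Beside it stood 2900 to 5892 EV reads of miR-130a-3p, 701 to 2380 of miR-130b-3p and 114 to 1131 of miR-301a-3p. EV libraries held reads of 183 to 202 mouse miRNAs and cell libraries of 466 to 599, so absence from EVs was common. Whether EVs hold less of the arms relative to their guides than cells do was not tested. The other mouse miRNAs of the sequence table with the seed AGUGCAA, namely miR-130c, miR-6341, miR-6389 and miR-721, had 0 reads in all 8 libraries. The sequence table covers 1679 of the 1978 miRNAs, and the seeds of the others were not searched.

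Likeness of the profile was measured as the root mean square difference of log2 levels over the 8 libraries after each miRNA was centred on its own mean, which describes a pattern dominated by the gap between cells and EVs. The 3 miRNAs closest to miR-130a-3p were miR-27b-3p (0.155), miR-21a-5p (0.250) and miR-324-5p (0.253), where the median over all miRNAs was 2.11. For miR-130b-3p they were let-7g-5p (0.423), miR-221-3p (0.505) and let-7a-5p (0.560), with a median of 1.43. For miR-301a-3p they were miR-140-5p (0.570), miR-181b-5p (0.645) and miR-7a-5p (0.756), with a median of 1.96. miR-140-5p, like miR-301a-3p, had its highest EV count in EV shPCBP2 replicate 1, with 608 reads against 63 to 167 in the other EV libraries. miR-181b-5p (1421 reads) and miR-7a-5p (216 reads) also had their highest EV count there. These miRNAs were picked for likeness over the same libraries, so the shared peak is no separate evidence for it. The members were 0.907 to 1.30 apart from each other, farther than any of these neighbours.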

How the data were processed

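The authors extracted small RNA from cells and EVs, added the cel-miR-39 spike-in, sequenced the libraries in paired-end mode, trimmed the reads, aligned the forward reads with mirPRo and NovoAlign to miRBase hairpins and the spike-in, and deposited raw read counts per mature miRNA. The largest deposited counts are rounded to 6 significant digits. The alignment may split reads between near-identical members.

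miRNAs with at least 1 read in 2 cell and 2 EV libraries (180) were tested with the edgeR 4.0.16 quasi-likelihood test in R 4.3.3, with the spike-in count as library size up to a constant and 1 estimate of the spread over 8 libraries (4 residual and 2.10 prior degrees of freedom, common dispersion 0.693). p-values were adjusted over the 180 miRNAs with the Benjamini-Hochberg method, and "called" or "passed" means an adjusted p under 0.05. Standard errors derive from the F statistic. Member ratios (0.5 added to each count) were compared with a two-sided exact permutation test in scipy 1.17.1. Both shRNAs were pooled where EVs were compared with cells. Also tried were scaling by TMM, by median-of-ratios or by the miRNA total, DESeq2 1.42.0, no filter, a filter of 10 counts, a replicate block and leaving out each library.

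Members, lists, motifs and tests were chosen with earlier results of these data known. The named miRNAs were the 4 members, their opposite arms, other miRNAs with the same seed, the miR-148, miR-152 and miR-19 guides, and the 3 miRNAs most like each tested member. Marker lists of hepatocyte, erythroid, leukocyte, endothelial, mesenchymal and muscle miRNAs were fixed as well. Replicate numbers of shPCBP2 differ between sample titles and descriptions, and those of the titles were used. Differences between same-numbered replicates in cells and EVs correlated at -0.075 in shCTR and 0.038 in shPCBP2 over 180 miRNAs, so the numbers were not taken to pair samples. Reads carry no molecular identifiers, so intervals and floors cover counting error only. PCBP2 mRNA was not analysed here.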

Additional observations from a re-analysis of the deposited data

Results flagged for a closer look

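miR-301b-3p had 158 reads in EV shPCBP2 replicate 1 and 0 reads in both EV shCTR libraries and in EV shPCBP2 replicate 2. It was left out of the tests by the filter, and its level of 4.21 reads per 1000000 spike-in reads in that library was at least 37.7-fold higher than the level of 3 reads per library in EV shCTR. Without the filter, edgeR gave its change in EVs an unadjusted p of 0.0174 and an adjusted p of 0.337, and its change of the EV/cell ratio an adjusted p of 0.763. The reads come from a single EV library.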

How the results depend on the processing

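Of 252 recomputed log2 changes of members, 226 kept their direction and their side of the threshold, 16 changed sign, 12 lost the call (3 of them also among those that changed sign) and 1 gained it, and the cause was not tested unless stated. Scaling by TMM, by median-of-ratios or by the miRNA total left 1 member called between EVs and cells in each condition in place of 3. With the total miRNA count the EV/cell difference was 0.12 in shCTR and 0.16 in shPCBP2 for miR-130b-3p and 0.14 in shPCBP2 for miR-301a-3p, and the ratio changed by 0.068 for miR-130a-3p and 0.034 for miR-130b-3p. In cells, miR-301a-3p changed by 0.11 with TMM, 0.033 with median-of-ratios scaling and 0.58 with a replicate block by description number. Leaving out 1 library in turn gave ratio changes of -0.54 to 0.18 for miR-130a-3p, where 0.16 came without cell shPCBP2 replicate 2, of -0.87 to 0.29 for miR-130b-3p, with 0.10 without cell shPCBP2 replicate 2 and 0.04 without EV shCTR replicate 1, and of -0.35 to 2.66 for miR-301a-3p. In EVs it gave -0.15 to 1.02 for miR-130b-3p and -0.72 to 2.28 for miR-301a-3p, and 0 to 1 members called. Over all alternatives, 0 to 14 of the tested miRNAs were called for the ratio (4 with the main settings), 0 to 27 in EVs (13), 0 to 39 in cells (0), 75 to 294 between EVs and cells in shCTR (119) and 86 to 294 in shPCBP2 (122). A block for the replicate number of the titles gave ratio changes of -0.15, -0.22 and 1.64 for miR-130a-3p, miR-130b-3p and miR-301a-3p. It changed no call of a member and left 1 miRNA called for the ratio and 2 in EVs. A block for the number of the descriptions gave -0.26, -0.40 and 0.75, with 0 miRNAs called for the ratio and 0 in EVs. Paired within title numbers, which the descriptions do not share for replicate 1 of shPCBP2, the EV minus cell difference of the miR-130b-3p to miR-130a-3p ratio was 2.27 (exact sign-flip permutation, adjusted p = 0.1875, where 4 pairs cannot give an unadjusted p below 0.125). Of the members, an unadjusted p under 0.05 was reached in 1 or more alternatives by miR-130a-3p in EVs (6 of 17) and cells (1), by miR-130b-3p in EVs (3) and cells (4), and by miR-301a-3p in EVs (2) and for the ratio (2 of 16). With 2 libraries per group, the intervals given above for shPCBP2 against shCTR were wide. A member that was not called may still have changed.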

Other observations

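Seeds that overlap that of the family at a shifted offset occur in the miR-148, miR-152 and miR-19 guides, of which 3 of 5 were tested. Capitals mark bases 2 to 8.
miR-148a-3p: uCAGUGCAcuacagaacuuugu
miR-152-3p: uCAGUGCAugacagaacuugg
miR-19b-3p: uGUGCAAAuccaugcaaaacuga
miR-148a-3p had 75, 42, 7 and 32 reads in the cell libraries and 548, 650, 964 and 620 in the EV libraries, in the order shCTR replicates 1 and 2, then shPCBP2 replicates 1 and 2. Its log2 EV/cell difference was 2.70 in shCTR (edgeR adjusted p = 0.0535) and 4.39 in shPCBP2 (adjusted p = 0.0113), opposite in sign to the members. miR-152-3p had 6825, 6107, 5411 and 7427 reads in cells and 693, 573, 303 and 372 in EVs, and was lower in EVs in both conditions (log2 -4.04, adjusted p = 0.000348, and -5.15, adjusted p = 0.000133). Its change in EVs between shPCBP2 and shCTR was -1.21 (adjusted p = 0.218). miR-148b-3p had 6167, 5340, 4138 and 4963 reads in cells and 316, 127, 1 and 217 in EVs. miR-19b-3p had 1312, 649, 813 and 994 reads in cells and, in EVs, 59 reads in shCTR replicate 1 and 0 in the other libraries. miR-19a-3p had 153, 68, 66 and 52 reads in cells and 92 in that same EV library.

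Of the remaining marker lists, muscle miR-206-3p had 12252 to 19342 reads in cells and 86 to 178 in EVs. The other muscle markers were scarce, with 6 to 52 reads of miR-1a-3p and 0 to 13 of miR-133a-3p in cells. In EVs they had 0 to 65 and 0 reads. Mesenchymal miR-143-3p had 21 to 138 reads in cells and 601 to 1650 in EVs. Endothelial miR-126a-3p had 1524 to 2218 reads in cells and 1748 to 2827 in EVs, and miR-126a-5p had 369 to 606 and 977 to 3126. These are reads before scaling by the spike-in, which took more reads in EV libraries. As a level, the 2 endothelial markers together were at 110 to 170 in cells and 101 to 187 in EVs.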
